A study of Mus musculus with 4 samples.

Results

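The 2638 regions described here are places inside the bodies of protein-coding genes that were marked with an antibody to PPP2CA in mouse haematopoietic stem cells. They are 21.2% (95% exact interval 20.5 to 21.9) of the 12438 regions that were marked in both PPP2CA libraries and carried no peak of the control immunoglobulin (IgG). A region counted as inside a gene when it overlapped a protein-coding gene of the GRCm38 RefSeq gene table and lay more than 1 kb from every boundary of a protein-coding or lncRNA gene. The remaining regions either lay within 1 kb of a boundary (8109 regions, 65.2%) or lay outside protein-coding genes (1691 regions, 13.6%). The latter are called regions outside genes below, and the body of a lncRNA gene counts as outside in this sense. The regions were chosen by the peak calls and their positions, so their presence in both PPP2CA libraries and their absence from the IgG lists are the rule and not a finding. With PPP2CA 1 alone there would be 4434 such regions, and with PPP2CA 2 alone 4773.

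There were 2 PPP2CA libraries and 2 IgG libraries, all from haematopoietic stem cells of the bone marrow of mice with the wild-type Ppp2ca gene. CUT&Tag was used, in which an antibody brings a transposase to the DNA around its target so that sequencing adapters are inserted there. The study asked which places in the genome PPP2CA occupies. The age and strain of the mice, and whether the replicates are from different animals or pools, are not stated in the labels. No expression values were used here, so the labelled cell type could not be checked against its marker genes.

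PPP2CA is the catalytic subunit of PP2A, a serine/threonine phosphatase that is built from a catalytic, a scaffold and an exchangeable regulatory subunit. PP2A removes phosphate from kinases of many signalling pathways, and in the nucleus it acts on proteins of the transcription machinery and on chromatin regulators. Inside gene bodies, regulatory DNA is of several kinds. A gene may have a second promoter downstream of its first, and introns often hold enhancers. In blood cells Runx1 is a well-known case, with a distal and a proximal promoter far apart and an enhancer between them.

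The sequences that follow show annotated transcript starts inside genes, since 564 of the in-gene regions covered such a start. These 564 lay a median of 4546 bp from the nearest gene boundary, against 9704 bp for the regions that covered none of their gene's listed starts. They are RefSeq promoter windows of GRCm38.p6, from 250 bases before to 50 bases after a start, on the strand of the gene and from 5′ to 3′, with each CG dinucleotide in capitals. The first pair belongs to Runx1, a master regulator of blood stem cell formation. Its inner start on the minus strand of chromosome 16 was covered by an in-gene region of 26 and 29 summit fragments in PPP2CA 1 and PPP2CA 2, and its window holds 35 CG. Its outer start, at the gene's 5′ end, was covered by a boundary region of 28 and 36 fragments and its window holds 2 CG.
Runx1 inner start, chr16:92697280-92697579, minus strand: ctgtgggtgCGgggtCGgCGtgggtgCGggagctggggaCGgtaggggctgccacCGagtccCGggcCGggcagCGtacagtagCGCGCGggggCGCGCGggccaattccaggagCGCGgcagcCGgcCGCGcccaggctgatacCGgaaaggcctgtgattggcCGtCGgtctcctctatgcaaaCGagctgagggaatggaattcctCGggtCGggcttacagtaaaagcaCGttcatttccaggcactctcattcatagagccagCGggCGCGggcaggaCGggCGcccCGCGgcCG
Runx1 outer start, chr16:92826025-92826324, minus strand: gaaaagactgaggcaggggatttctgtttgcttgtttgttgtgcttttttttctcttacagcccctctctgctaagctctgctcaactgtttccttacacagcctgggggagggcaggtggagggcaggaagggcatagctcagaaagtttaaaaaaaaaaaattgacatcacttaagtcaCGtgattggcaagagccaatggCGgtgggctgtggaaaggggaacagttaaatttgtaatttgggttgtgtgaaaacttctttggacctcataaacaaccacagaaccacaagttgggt
Runx3, a relative of Runx1 that acts in lymphoid and myeloid cells, had the same arrangement on the plus strand of chromosome 4. The inner start was covered by an in-gene region of 37 and 43 fragments with 45 CG in the window, and the outer start by a boundary region of 44 and 40 fragments with 8 CG in the window.
Runx3 inner start, chr4:135152295-135152594, plus strand: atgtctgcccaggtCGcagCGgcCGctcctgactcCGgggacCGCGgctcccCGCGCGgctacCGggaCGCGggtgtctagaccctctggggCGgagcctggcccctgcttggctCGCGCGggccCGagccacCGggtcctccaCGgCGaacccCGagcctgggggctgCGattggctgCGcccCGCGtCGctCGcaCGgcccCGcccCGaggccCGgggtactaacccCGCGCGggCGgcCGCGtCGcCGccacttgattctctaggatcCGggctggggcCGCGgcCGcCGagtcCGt
Runx3 outer start, chr4:135120395-135120694, plus strand: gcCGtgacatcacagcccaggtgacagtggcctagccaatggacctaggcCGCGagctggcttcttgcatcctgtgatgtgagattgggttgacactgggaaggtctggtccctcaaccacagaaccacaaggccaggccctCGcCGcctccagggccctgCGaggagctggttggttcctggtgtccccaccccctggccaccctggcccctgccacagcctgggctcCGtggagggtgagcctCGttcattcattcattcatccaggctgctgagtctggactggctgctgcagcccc
Elf1, an ETS family transcription factor of blood cells, had the reverse composition. Its inner start held 3 CG and was covered by an in-gene region of 21 and 21 fragments, and its outer start held 43 CG and was covered by a boundary region of 77 and 83 fragments.
Elf1 inner start, chr14:79515424-79515723, plus strand: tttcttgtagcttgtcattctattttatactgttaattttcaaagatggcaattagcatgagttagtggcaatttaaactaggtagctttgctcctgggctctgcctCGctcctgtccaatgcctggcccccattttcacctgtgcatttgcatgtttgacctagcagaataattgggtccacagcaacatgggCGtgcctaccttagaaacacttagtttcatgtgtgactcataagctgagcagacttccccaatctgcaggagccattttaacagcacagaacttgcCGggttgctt
Elf1 outer start, chr14:79480944-79481243, plus strand: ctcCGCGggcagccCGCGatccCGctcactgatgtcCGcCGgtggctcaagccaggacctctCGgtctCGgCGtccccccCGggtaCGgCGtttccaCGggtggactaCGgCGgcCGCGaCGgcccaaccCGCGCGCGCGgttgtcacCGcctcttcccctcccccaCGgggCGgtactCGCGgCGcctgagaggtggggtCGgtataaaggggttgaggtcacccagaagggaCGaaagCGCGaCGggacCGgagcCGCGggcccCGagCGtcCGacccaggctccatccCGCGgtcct
Inner starts that no region covered were mostly poor in CG. An example is an inner start of Ikzf1, which encodes a lymphoid transcription factor, with 2 CG in its window.
Ikzf1 inner start without a region, chr11:11689927-11690226, plus strand: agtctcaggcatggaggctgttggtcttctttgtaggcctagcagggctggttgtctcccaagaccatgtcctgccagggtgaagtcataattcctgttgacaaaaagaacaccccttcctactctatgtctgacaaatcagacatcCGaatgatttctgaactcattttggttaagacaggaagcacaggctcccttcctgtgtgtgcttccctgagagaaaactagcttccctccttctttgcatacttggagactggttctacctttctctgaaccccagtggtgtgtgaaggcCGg

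A minority of the in-gene regions covered an annotated start, and the share was highest among the best-ranked regions. The promoter table has entries on the chromosomes of 2546 of the 2638 regions, and 564 of these 2546 (22.2%, 20.6 to 23.8) covered a start. In 561 of the 564 it was a start of a protein-coding gene that holds the region. Regions were ranked by the worse of their ranks within the lists of PPP2CA 1 and PPP2CA 2 by the authors' −log10 q. Among ranks 1 to 100, 61% (50.7 to 70.6) covered a start. The share was 43.5% at ranks 101 to 300, 29.3% at ranks 301 to 1000 and 13.6% (12 to 15.5) at ranks 1001 to 2546. A taller peak is also wider, which moves with this share. The regions that covered a start had a median width of 988 bp and median summits of 26 and 28 fragments, and the 1555 regions that covered none of their gene's listed starts had a median width of 780 bp and 17 and 18 fragments. The other 427 regions without a covered start lay in genes with no entry in the promoter table. In the 22.2% and in the shares by rank they count as covering no start, though no start of their own gene could be checked. The part of peak width in the share was not tested.

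Seen from the starts, in-gene PPP2CA regions lay over CG-rich inner promoters. Of the 3588 starts of protein-coding genes that lie more than 1 kb from every boundary, 669 (18.6%, 17.4 to 20) were covered by an in-gene region. No region covered 2749 of them, and the others were covered by a region that reached within 1 kb of a boundary. Of the 17675 starts within 1 kb of a boundary, 7030 (39.8%, 39.1 to 40.5) were covered by any region, so 18.6% and 39.8% are not the same measure. The covered inner starts had a median GC content of 62.7% and a median of 22 CG in their windows of 300 bases. Inner starts that no region covered had 52% and 5 CG, and covered starts near a boundary had 63% and 24 CG. The share of inner starts covered by an in-gene region was 44.2% (40.9 to 47.5) with 20 or more CG and 28% with 10 to 19. It was 8.15% with 5 to 9 and 1.79% (1.11 to 2.73) with fewer than 5. Starts of one gene can lie close together and share a region, so these starts are not independent.

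**Figure D1:**
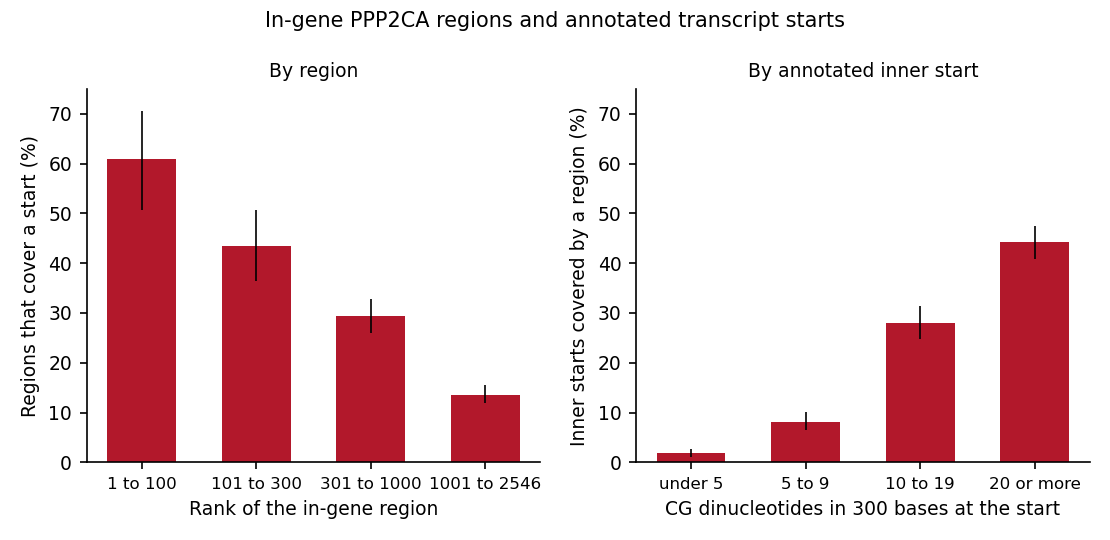
The left panel plots the share of in-gene regions that cover an annotated transcript start (percent) by rank of the region, and the right panel the share of annotated inner starts that an in-gene region covers (percent) by the number of CG dinucleotides around the start. Lines are 95% exact intervals that cover counting error only. The share of regions is 61% at ranks 1 to 100 and 13.6% beyond rank 1000, and the share of starts is 44.2% with 20 or more CG and 1.79% with fewer than 5.

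Short motifs in these windows differed along the same line. The letters were searched on both strands, and a window counted once per motif. The GC box GGGCGG, which is bound by SP family factors and itself holds a CG, was in 68.9% of the windows of covered inner starts, 27.2% of those of uncovered inner starts and 46.2% of all promoter windows of protein-coding genes. The ETS core CCGGAAG, which also holds a CG, was in 15.5% of covered, 4% of uncovered and 11.6% of all windows. The cyclic AMP response element TGACGTCA was in 3.14% of covered, 1.05% of uncovered and 2.23% of all windows. The CCAAT box CCAAT was in 35% of covered, 35.2% of uncovered and 38.2% of all windows, so it did not follow that order. The TATA box TATAAA was in 4.48% of covered, 13.5% of uncovered and 12.6% of all windows, and the GATA letters AGATAA were in 5.23%, 12.4% and 9.65%. The AP-1 letters TGANTCA were in 5.53% of covered, 8.55% of uncovered and 6.99% of all windows. The E-box CACGTG was in 8.37% of covered, 5.57% of uncovered and 7.84% of all windows. The motifs that hold a CG were thus the ones found more often in covered windows, and how far CG content alone gives these shares was not tested.

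Of the 552 genes with a covered inner start, 139 (25.2%, 21.6 to 29) also had a region within 1 kb of their 5′ boundary, against 43% (42.2 to 43.8) of all 15328 genes over 2 kb with listed starts. The promoter table listed more than 1 start for 285 of the 552 genes, and for the other 267 the inner start was the only one listed, so that the gene entry extends beyond it and its 5′ boundary is not a listed start. Of the genes with several starts, 191 had an outermost start within 1 kb of a boundary. That outermost start was covered in 75 of them (39.3%, 32.3 to 46.6) and not covered in 116. Over all 2450 genes with several listed starts and an outermost one near a boundary, 44.4% (42.4 to 46.4) had it covered, and the intervals overlap. Runx1, Runx3 and Elf1 belong to the 75, and Set, Cdkn1a and Dnmt1 to the 116.

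The regions that covered no start were spread along the gene body. In the 1555 regions whose gene has a known strand and listed starts, the summit lay a median of 24 kb (quartiles 9.55 and 60.6 kb) from the 5′ end of the gene. It lay a median of 17.7 kb from the nearest listed start, and 88.9% of the summits lay downstream of that start. A region inside a gene lies downstream of any start at the gene's 5′ end, so the choice of regions favours this share. With the gene body cut into 10 equal parts, each of the inner 8 parts held 10% to 12.3% of the 1555 regions. The part at the 5′ end held 7.97% and the part at the 3′ end 5.79%. The exclusion of 1 kb at both ends takes away more of the outer parts, above all in short genes. Among the 563 regions that covered a start and could be placed, 28.6% lay in the part at the 5′ end and 0.888% in the part at the 3′ end. The files and tables used here do not give exons, so it cannot be said which regions are exonic, intronic or in a UTR.

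**Figure D2:**
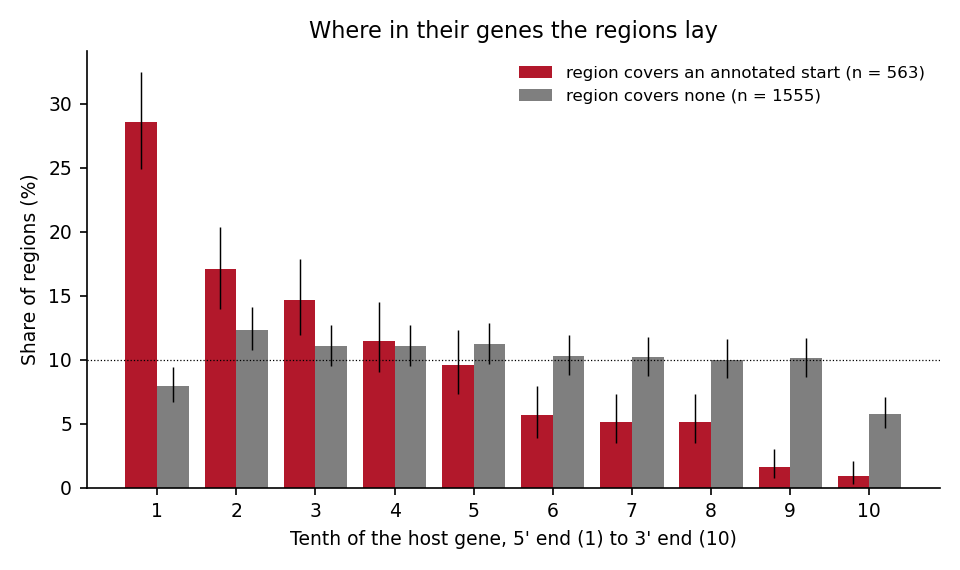
Share of in-gene PPP2CA regions (percent) in each of 10 equal parts of the host gene, from the 5′ end (1) to the 3′ end (10), for regions that cover an annotated start (red, 563 regions) and regions that cover none (grey, 1555 regions). Lines are 95% exact intervals and the dotted line marks 10%. Start-covering regions make up 28.6% in part 1 and 0.888% in part 10, while the others stay near 10% in parts 2 to 9.

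The in-gene regions were smaller than the regions at gene boundaries and closer in height to those outside genes. The value given is the number of fragments stacked at the summit, recovered from the fold and p-value of each peak. Its median was 18 in PPP2CA 1 and 20 in PPP2CA 2 for in-gene regions (range 5 to 511 and 5 to 552), against 28 and 30 for boundary regions and 16 and 17 for regions outside genes. The authors' fold over local background had medians of 5.45 and 5.5 for in-gene regions, against 6.85 and 6.8 for boundary regions. Median widths were 825 bp for in-gene regions, 999 bp for boundary regions and 771 bp outside genes. In-gene regions made up 113 of the 1243 best-ranked regions of the whole set (9.09%) and 424 of the 1243 lowest-ranked (34.1%). All these values come from the peaks that defined the regions and are a description.

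Fewer of the in-gene places than of the boundary places were found in both libraries. Of the 6460 merged PPP2CA places inside genes without an IgG peak, 2638 (40.8%, 39.6 to 42) were in both libraries, against 8109 of 10528 at boundaries (77%, 76.2 to 77.8) and 1691 of 4574 outside genes (37%, 35.6 to 38.4). Height moves with this, since 57.4% of the in-gene regions and 36.4% of the boundary regions had under 20 fragments in at least 1 library. An IgG peak lay at 29 of the 2667 replicated in-gene regions (1.09%), which were left out. Of all peaks of a single list, 26.6% and 27.2% of those of PPP2CA 1 and PPP2CA 2 lay inside genes by the same rule, against 33.7% and 36.1% of the 561 and 310 peaks of IgG 1 and IgG 2. Peaks of the IgG lists were low (median summit 4 fragments, against 18 in each PPP2CA list), so an in-gene region without an IgG peak may still hold uncalled IgG signal.

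The heights of the in-gene regions were compared between the PPP2CA libraries. Only regions called in both libraries enter this comparison, which by itself removes large differences, and the in-gene places found in 1 library alone were not part of it. After scaling by the summed fragments (PPP2CA 2 over PPP2CA 1, 1.09), a two-sided exact binomial test with Benjamini-Hochberg adjustment over all 12438 regions called 0 in-gene regions and 0 of all regions (0%) at an adjusted p under 0.05. At an unadjusted p under 0.05 there were 41 in-gene regions (1.55%) and 240 of all regions (1.93%). The chi-square of the counts over its degrees of freedom was 0.691 for in-gene regions and 0.725 for all regions. The PPP2CA 2 over PPP2CA 1 ratio of in-gene regions ran from −1.37 to 1.27 on the log2 scale, with a median of −0.01. Summits of both libraries lay a median of 97 bp apart. Within these regions the libraries differed by less than the sampling noise, which the choice of regions favours, so these values do not show how far the libraries agree over all places. Since nothing marks the libraries as separate animals, they were counted as 1 sample, and values are given per library with no SD.

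**Figure D3:**
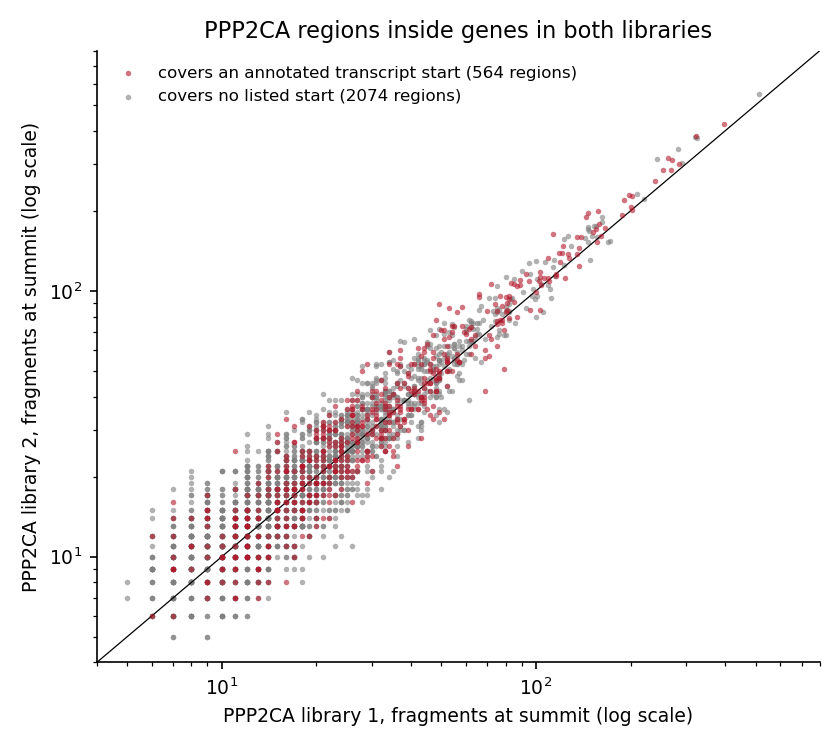
Each point is 1 of the 2638 in-gene PPP2CA regions, with its summit fragments in PPP2CA 1 (horizontal, log scale) and PPP2CA 2 (vertical, log scale). Red points are the 564 regions that cover an annotated start, grey points the 2074 that cover no listed start, and the line marks equal numbers. The grey points include regions that could not be checked, because their chromosome or gene has no entry in the promoter table. Points lie along the line from 5 to 552 fragments, and red points are more frequent at the upper end.

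Of the 15 best-ranked in-gene regions, 12 lay in genes with promoter entries, and 10 of these covered an annotated start. Those in Impact, Kdm6b and Actb could not be checked. The first was in Impact, a regulator of protein synthesis under stress, with 321 fragments in PPP2CA 1 and 379 in PPP2CA 2. Arrdc3, an arrestin-like adaptor of receptor traffic, had 323 and 383 fragments over its start at chr13:80884811-80886410. The tallest was in Kdm6b, a histone demethylase that removes a repressive Polycomb mark, with 511 and 552 fragments over 3144 bp. Actb, which encodes cytoplasmic beta-actin, had 326 and 375 fragments 1117 bp from its nearest boundary. Ccnl1, a cyclin tied to splicing, had 286 and 299 fragments over its start. Hnrnph1, a splicing regulator, had 202 and 228, and Cirbp, a cold-inducible RNA-binding protein, had 253 and 285. Bclaf1, a factor in transcription and RNA processing, had 269 and 286 fragments over its start, and Tpm3, a tropomyosin of the actin cytoskeleton, had 270 and 310. Mnt, a repressor that competes with Myc for its partner, had 291 and 302 fragments, and Ing1, a reader of histone marks, had 398 and 425 over a start. The other members of the 15 were Hhat (284 and 342), Midn (264 and 317), Tcf25 (201 and 206) and Lrif1 (157 and 200). Of these, Hhat is the acyltransferase of Hedgehog ligands, and its region covers no start but holds the snRNA entry Gm22265.

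Genes that hold an in-gene region were longer than other genes. The 2638 regions lay in 2061 protein-coding genes, 10.7% of the 19222 genes longer than 2 kb. PPP2CA 1 alone would give 3124 host genes and PPP2CA 2 alone 3345. The median length was 48.9 kb for host genes and 19.2 kb for genes over 2 kb without an in-gene region. The share of genes with an in-gene region was 2.15% at 2 to 10 kb, 9.3% at 10 to 30 kb, 15.6% at 30 to 100 kb, 24.3% at 100 to 300 kb and 18.9% above 300 kb. Per length of gene body the order was different, with 5.53 regions per Mb in genes of 10 to 30 kb and 0.536 per Mb in genes above 300 kb. Over all chromosomes there were 2.71 regions per Mb in the interior of genes and 1.08 per Mb outside genes, a ratio of 2.5. Chromosome 11 had 5.04 and chromosome X 1.04 regions per Mb of gene interior.

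Around 1 in 2 host genes had no PPP2CA region at either boundary, but a gene boundary is not always a listed start. Of the 552 genes with a covered inner start, 267 had that start as their only listed one. An unmarked boundary therefore need not mean an unmarked promoter. Of the 2061 host genes, 994 (48.2%, 46.1 to 50.4) also had a region within 1 kb of one of their own boundaries, against 43.4% of all 19222 genes. Host genes were 11.9% (11.2 to 12.6) of the genes with a marked boundary and 9.81% (9.26 to 10.4) of those without. The gap was wider in genes above 300 kb, where 39.1% (29.9 to 48.9) of those with a marked boundary and 13.9% (10.8 to 17.4) of those without held an in-gene region. In genes of 2 to 10 kb the shares were 1.88% and 2.32%. The in-gene regions lay between 1003 and 286766 bp from the nearest boundary of any gene, with a median of 8223 bp, and 1153 (43.7%) lay more than 10 kb away. At the limit of 1 kb, the nearest regions inside were in Sin3a (1003 bp, 170 and 152 fragments), Zmiz1 (1004 bp, 27 and 23) and Wdr1 (1005 bp, 50 and 71). Just outside it were regions at Thra (994 bp, 15 and 22 fragments) and Arih1 (992 bp, 94 and 121).

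Most host genes held 1 in-gene region, and some held many. There were 1643 host genes with 1 region, 298 with 2, 79 with 3 and 41 with 4 or more. Zmiz1, a coactivator of Notch and other transcription factors, held 9 regions over 209 kb, of 9 to 29 fragments in PPP2CA 1 and 9 to 28 in PPP2CA 2. Their median summits were 14 and 18 fragments, against 18 and 20 for all in-gene regions, and 1 of the 9 covered a start. Pik3ap1, an adaptor that links receptors to PI3K in B cells and myeloid cells, held 7 regions of 13 to 36 and 12 to 45 fragments. Snx29 held 6, the tallest of 156 and 160 fragments, and Maml3, a Mastermind coactivator of Notch, held 6, the tallest of 147 and 168 fragments. Ctif, a factor in translation initiation, held 6 of at most 41 and 43 fragments. Of the genes with 5, Ski is a repressor of TGF-beta signalling, and its tallest region had 96 and 116 fragments. The Polycomb corepressor gene Bcor had its tallest at 111 and 102, and Gramd1b, which encodes a cholesterol transfer protein, at 80 and 68. Dnmt3a, the DNA methyltransferase that limits stem cell self-renewal, had its tallest in-gene region at 56 and 53 fragments, and Gse1 at 46 and 61. Of these 10 genes, Maml3, Ctif, Dnmt3a, Gramd1b and Gse1 had no region at either boundary.

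Transcription factors of blood stem cells were frequent hosts. Of 45 such genes, 22 (48.9%, 33.7 to 64.2) held an in-gene region, beside 10.7% of all genes. These are long genes, with a median of 96.5 kb against 21.4 kb for all genes. Of the list's genes above 100 kb, 12 of 20 were hosts, beside 23% (21.4 to 24.8) of all genes of that length. The list was assembled with earlier results of these data known, so these counts are a description. The regions themselves were of ordinary height, with median summits of 17 and 17 fragments against 18 and 20 for all in-gene regions.

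Runx1 held 4 in-gene regions along its 225 kb (chr16:92601466-92826074). The one nearest the 5′ end, 24.4 kb downstream of it, had 23 fragments in PPP2CA 1 and 24 in PPP2CA 2. The next, at 110 kb, had 16 and 9. The one over the inner start printed above, at 129 kb, had 26 and 29, and the last, at 205 kb, had 21 and 28. The heights were similar apart from the low one at 110 kb. Mef2c, a transcription factor of lymphoid and myeloid differentiation, held 4 regions and none at its boundaries. Its tallest, 68.2 kb from the 5′ end, had 61 and 65 fragments, and the others had 15 to 20 and 13 to 28. Elf1 held 4 regions of 17 to 21 and 15 to 22 fragments between 34.5 and 54.4 kb from its 5′ end. The Elf1 gene body also holds the pseudogene entry Gm9243 over the first pair of these, and reads of a copied sequence may not be placed with certainty. Runx3 held 3, the tallest being that over its inner start, and Runx2, a relative known mainly from bone, held 3 of 8 to 14 and 12 to 17 fragments.

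The other factors held 1 or 2 regions each. The ETS factor genes Erg, Ets1, Fli1 and Etv6 were all hosts. Erg, which maintains stem cells, had 29 and 38 fragments in the taller of its 2 regions and 7 and 10 in the other. Fli1 had 24 and 39 fragments in 1 region, Ets1 had 13 and 17 in its taller region, and Etv6 had 16 and 12 in its taller region. Zfx, a zinc finger factor of stem cell self-renewal, had 54 and 74 fragments over an inner start. In Tal1 the single region had 18 and 23 fragments, and in Lmo2, which encodes a partner of the Tal1 protein, 11 and 19. Meis1, a homeobox factor of stem cells, had 15 and 13 fragments in the taller of 2 regions, and Hoxa9, its partner, had 21 and 22 in 1 region, 1.43 kb from its 5′ end. Single regions lay in Rara (37 and 31), Bcl11a (16 and 23), Tcf4 (14 and 19), Ikzf1 (9 and 13), Hmga2 (11 and 11) and Satb1 (10 and 7). Nfix had 30 and 25 fragments and Foxp1 17 and 13 in the better-ranked of their 2 regions. The 23 factors with no in-gene region included Gata2, Hlf and Prdm16, which also had none at a boundary, and Myb, Gfi1 and Cbfb, which had one at a boundary.

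**Figure D4:**
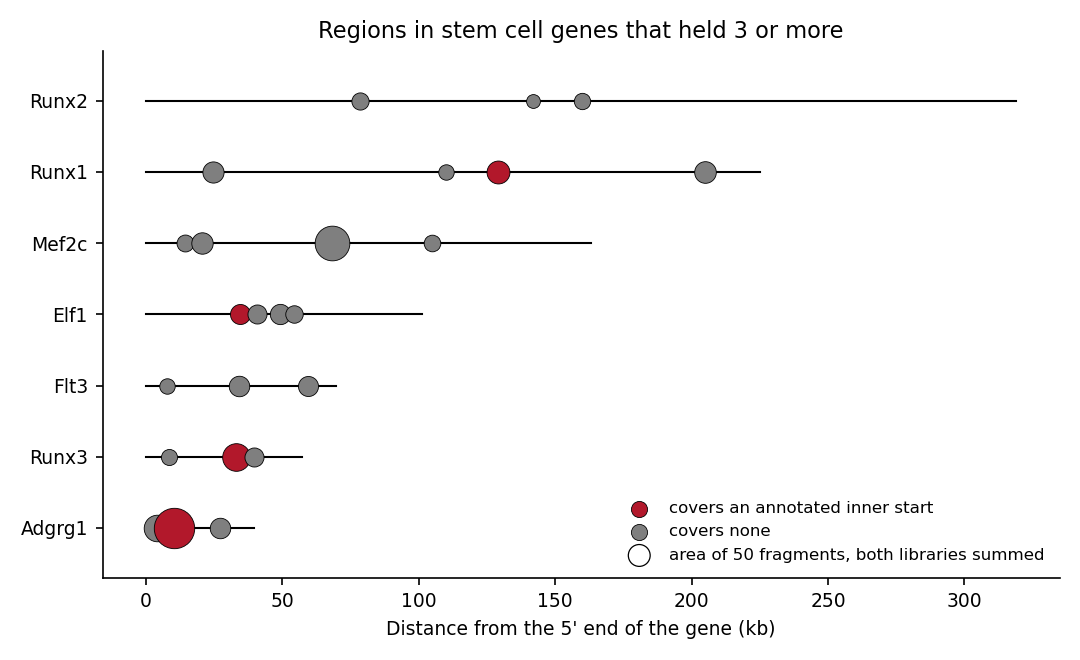
In-gene PPP2CA regions of the stem cell transcription factor and receptor genes that held 3 or more and have a known strand, by distance from the 5′ end of the gene (kb). Black lines show the gene bodies, circle areas the summit fragments of both libraries summed, and red circles the regions over an annotated inner start. Regions of Runx1 lie between 24.4 and 205 kb, those of Mef2c between 14.4 and 105 kb of its 163 kb, and those of Elf1 lie together between 34.5 and 54.4 kb.

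Receptor and surface genes of stem cells were hosts in 14 of 40 cases (35%, 20.6 to 51.7), beside 10.7% of all genes and 15.6% of genes of 30 to 100 kb. The median length of the list was 37.8 kb. The tallest region was in Selp, which encodes the adhesion molecule P-selectin, with 115 fragments in PPP2CA 1 and 114 in PPP2CA 2, at chr1:164135268-164136251. It lay 20.4 kb from the 5′ end, over no listed start, and Selp had no boundary region. Adgrg1, an adhesion receptor used as a stem cell marker, had 3 regions, and the tallest, of 81 and 90 fragments, covered its inner start. Notch1, the receptor needed for T cell fate and stem cell emergence, had 45 and 46 fragments 20.2 kb from its 5′ end. Flt3, the cytokine receptor of early multipotent progenitors, had 3 regions of 20 and 22, 16 and 28, and 11 and 14 fragments. Single regions lay in the integrin genes Itga2b (26 and 25) and Itga6 (14 and 15), and in Cd82 (25 and 27), Tnfrsf1b (18 and 29), Esam (12 and 18), Cd44 (10 and 12) and Acvr1b (10 and 11). Of the rest, Tgfbr2 had 14 and 16 fragments in the better-ranked of 2 regions, Ptprc, the CD45 gene, had 16 and 11, and Cd9 had 16 and 13. Among the genes with no in-gene region, Tek, Cd34, Procr and Slamf1 also had none at a boundary, while Kit had one at a boundary.

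Among the genes of PP2A itself, 5 of 26 (19.2%, 6.55 to 39.4) were hosts. Ppp2ca was not one of them, though it had a region at a boundary. In 3 of the 5 the region covered an inner start of the gene. Set, an endogenous inhibitor of PP2A, had 72 fragments in PPP2CA 1 and 66 in PPP2CA 2 over an inner start at chr2:30066148-30067312. Its outermost listed start was not covered and it had no boundary region. Tiprl, which binds the catalytic subunits of PP2A-like phosphatases, had 55 and 74 fragments over its inner starts at chr1:165236288-165237366 and no boundary region. Ptpa, the activator that helps to load metal into the catalytic subunit, had 25 and 23 over its only listed start. The regulatory subunit gene Ppp2r5c had 2 regions over no listed start, of 12 and 22 and of 20 and 17 fragments. Strn4, a striatin that joins PP2A to the STRIPAK complex, had 14 and 11. With 5 hosts, the interval for this list includes the share of all genes.

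In signalling pathways that PP2A is known to act on, the hosts ranged from 16.7% to 31.2% of the listed genes, beside 10.7% of all genes. These lists hold longer genes than the median of 21.4 kb for all genes. Their medians were 57.6 kb (MAP kinase), 68.8 kb (PI3K), 26.7 kb (NF-kappaB), 33.6 kb (Wnt) and 31.9 kb (JAK). Of all genes, 9.3% were hosts at 10 to 30 kb and 15.6% at 30 to 100 kb. The intervals of the PI3K, Wnt and JAK lists include both 10.7% and 15.6%. The counts rest on the demand for both libraries. With PPP2CA 1 alone or PPP2CA 2 alone, hosts would number 14 or 12 in the PI3K list, 14 or 12 in the NF-kappaB list, 13 or 12 in the Wnt list and 10 or 9 in the JAK list. Of the MAP kinase cascade, 15 of 48 genes (31.2%, 18.7 to 46.3) were hosts. Map2k3, a kinase upstream of p38, had 153 and 176 fragments, Map3k1 66 and 69, Mapk14, the p38 alpha gene, 42 and 55 in its taller region, and the adaptor gene Grb2 32 and 30 over inner starts. Of the NF-kappaB list, 9 of 34 (26.5%, 12.9 to 44.4) were hosts. Of these 9 genes 4 have no promoter entry, and in the other 5 no region covered a listed start of the gene. Nfkbiz, a nuclear IkB protein, had 113 and 123 fragments, and Nfkbie, a cytoplasmic inhibitor, had 74 and 77. Tnip1, a partner of the ubiquitin-editing enzyme A20, had 46 and 53 fragments, and the signalling adaptor gene Traf1 had 51 and 56. Of the PI3K, AKT, mTOR and FOXO list, 7 of 36 (19.4%, 8.19 to 36) were hosts. Pdpk1, the kinase that activates AKT, had 53 and 50 fragments, Sgk1, an AKT-like kinase, 46 and 45 over an inner start, Pik3cd, the leukocyte PI3K catalytic subunit, 33 and 45, and Inpp5d, the phosphatase SHIP, 39 and 41 in the best of 4 regions.

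The Wnt and beta-catenin list had 8 hosts of 35 (22.9%, 10.4 to 40.1), and none of the 8 had a region at its own boundary. Of all host genes, 51.8% had none there. In 3 of the 8 hosts an in-gene region covered a listed start of the gene, so the lack of a boundary region does not mean an unmarked promoter. Bcl9, a beta-catenin coactivator, had 35 and 24 fragments over its only listed start, and Lef1, a nuclear effector of the pathway, had 15 and 15. Gsk3b, the kinase of the destruction complex, had 13 and 18, and Tcf7l2, another nuclear effector, had 11 and 12 in the better of 2 regions. Bcl9 stood above the in-gene medians of 18 and 20 fragments, and the other 3 did not. Of the JAK, STAT and SOCS list, 4 of 24 (16.7%, 4.74 to 37.4) were hosts. The phosphatase genes Ptpn1 (29 and 53 over its start) and Ptpn6 (49 and 32), the adaptor Sh2b3 (65 and 76) and Stat3 (21 and 24) made up the 4.

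Chromatin, cytoskeleton and cell cycle genes held some of the tallest in-gene regions. Of 46 chromatin regulators, 17 (37%, 23.2 to 52.5) were hosts, beside 10.7% of all genes and 15.6% of genes of 30 to 100 kb. The list had a median length of 81 kb. Besides Kdm6b, the deacetylase gene Hdac4 had 78 and 88 fragments and Dnmt1, the maintenance DNA methyltransferase, 75 and 62, both over inner starts with no region at their boundaries. Of 45 genes of small GTPase exchange factors and the cytoskeleton, 21 (46.7%, 31.7 to 62.1) were hosts, with a median length of 92.9 kb. After Actb, the tallest were in Add3, an adducin of the membrane skeleton (119 and 128 over an inner start), in Vav1, the blood-cell exchange factor for Rac (74 and 82), and in Flna, an actin crosslinker (75 and 84 over its start). Of 48 cell cycle and p53 genes, 10 (20.8%, 10.5 to 35) were hosts. Mcl1, an anti-apoptotic protein that stem cells need, had 197 and 230 fragments over its only listed start at chr3:95658206-95659651. Cdkn1a, the p53-induced inhibitor of cyclin-dependent kinases, had 190 and 220 over an inner start at chr17:29093624-29095668, while its outermost start was not covered. Bcl2l1 had 49 and 50 fragments over its inner starts and Sesn1 23 and 30.

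Markers of other cells, given for comparison, had few hosts in number, and the lists are short. Lymphoid markers had 2 hosts of 27 (7.41%, 0.91 to 24.3), which were Dntt (19 and 24 fragments) and Lck (17 and 21). Myeloid markers had 3 of 20 (15%, 3.21 to 37.9), with 44 and 35 fragments in Spi1, 32 and 46 in Csf1r and 26 and 19 in Mmp9. Erythroid and megakaryocyte markers had 6 of 23 (26.1%, 10.2 to 48.4), among them Itga2b and Fli1 as above, Vwf (18 and 17 in the better of 2 regions) and Ank1 (18 and 9). Stromal and endothelial markers had 3 of 24 (12.5%, 2.66 to 32.4), which were Vwf, Pecam1 (23 and 19) and Runx2. All these shares stand beside 10.7% of all genes, and the lists differ in gene length. Median lengths were 14.9 kb for lymphoid, 11 kb for myeloid, 16.7 kb for erythroid and megakaryocyte and 41.4 kb for stromal and endothelial markers. Of all genes, 9.3% were hosts at 10 to 30 kb and 15.6% at 30 to 100 kb. Of 38 long neuronal genes, with a median length of 1139.7 kb, 0 were hosts, beside 18.9% of all genes above 300 kb. The exact interval for that share ends at 9.25%, and the limit of 3 counts at 7.89%. This 0 rests on the demand for both libraries, since 5 would be hosts with PPP2CA 1 alone and 3 with PPP2CA 2 alone. The lymphoid count would be 4 with either library alone, and the stromal count 5 or 3. A count of 3 of these neuronal genes had a boundary region. The differences between lists were not tested.

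**Figure D5:**
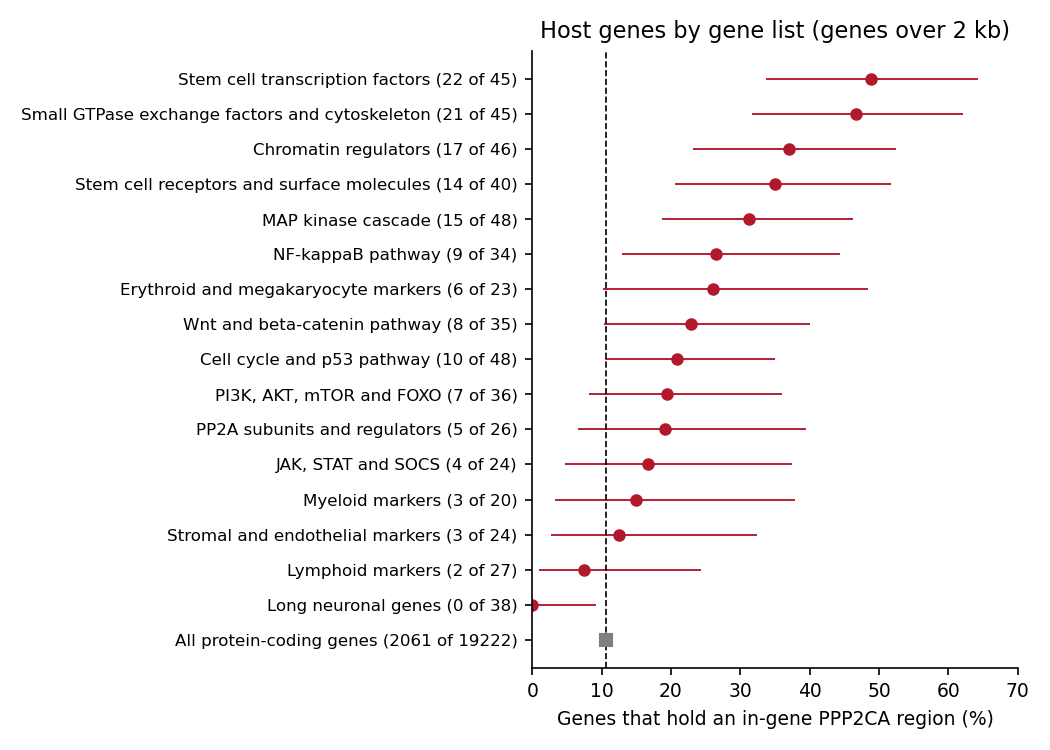
Share of the genes of each list that hold an in-gene PPP2CA region (percent, red points with 95% exact intervals), with the number of hosts and of genes over 2 kb beside each list. The grey square and dashed line mark all protein-coding genes (10.7%). Stem cell transcription factors stand at 48.9% and long neuronal genes at 0 of 38, and gene length differs between the lists.

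The regions farthest from any gene boundary lay in some of the longest genes. Apart from a low one in Fat3 they were of ordinary height, near the in-gene medians of 18 and 20 fragments. The farthest was in Fat3, a giant protocadherin, 286766 bp from a boundary, with 8 and 10 fragments in PPP2CA 1 and PPP2CA 2. Next was Fhit, a gene at a fragile site, at 284834 bp with 20 and 16 fragments, and this region covered a listed start of Fhit. Lpp (235623 bp, 16 and 19 fragments), Dlgap2 (211000 bp, 16 and 19) and Celf2 (183947 bp, 15 and 18) followed. None of the 5 came near the heights of the best-ranked regions.

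Few in-gene regions held an annotated small RNA. There were 5 with a miRNA entry, 1 with an snRNA entry, 2 with a tRNA entry and 0 with a snoRNA entry. The region in Srebf2, the master regulator of cholesterol synthesis, had 27 and 29 fragments and held Mir33, whose product is known to repress cholesterol export. The region in Clcn4 held Mir5620 (58 and 87 fragments) and that in Cfap43 held Mir8090 (9 and 5). Their mature RNAs are given from RefSeq on GRCm38.p6, from 5′ to 3′, with the seed (bases 2 to 8) in capitals, and no seed is shared among them.
miR-33-5p: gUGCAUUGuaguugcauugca
miR-33-3p: cAAUGUUUccacagugcaucac
miR-5620-5p: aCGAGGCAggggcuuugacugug
miR-8090: gAAGCGCAguggaggucugu

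The other miRNA entries were Mir1893 in Epc1 (100 and 130 fragments) and Mir1907 in Trps1 (13 and 17). Of the tRNA entries, n-TRtcg5 lay in a region of Polg with 37 and 31 fragments, and n-TGgcc2 in one of 15 and 18. The Polg region also covered the only listed start of Polg. PPP2CA 1 summits lay outside the small RNA entries, 193 bp from n-TRtcg5 and 446 bp from n-TGgcc2. The distances were 33 to 229 bp for the miRNA entries and 661 bp for the snRNA entry Gm22265. Pseudogene entries overlapped 8 regions and transcribed pseudogene entries 3. The best-ranked were Gm31532 in Sgo1 (48 and 78 fragments) and LOC115489640 in Rabepk (129 and 148). Their PPP2CA 1 summits lay outside the entries, 614 and 739 bp away. Reads of pseudogenes and their parent genes may not be placed with certainty.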

How the data were processed

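CUT&Tag peak lists of 2 PPP2CA and 2 IgG libraries of mouse haematopoietic stem cells were used, grouped by their titles. Per the submitters' processing notes the build was GRCm38 (mm10) and the tools included BWA and MACS2, with no version. Calling settings are not given in the sources used here. The authors deposited 1 MACS2 list per library, with each peak's fold (a ratio of the summit to its local background), the −log10 p and −log10 q, and a score that was not used in any result. The lists were called per library, so the authors' values describe and rank peaks within a list.

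Summit fragments and backgrounds were solved from each peak's deposited fold, read as summit plus 1 over background plus 1, together with its −log10 p, read as the upper tail of a Poisson distribution. Whole numbers fitted every peak to within a relative error of 8.8e-06. The lowest backgrounds were 0.784 and 0.8 fragments in PPP2CA 1 and 2, and 0.0839 and 0.0833 in IgG 1 and 2. The lists held 16811, 17686, 561 and 310 peaks in that order, and total reads are not given in the sources used here. Peaks of both PPP2CA lists were merged at an overlap of 1 bp into 21771 regions. RefSeq tables of GRCm38.p6 gave 21779 protein-coding and 12639 lncRNA genes and the promoter windows, matched by gene ID, with gene entries below 3 Mb left out except on Y. Fragment numbers were compared between the PPP2CA libraries by a two-sided exact binomial test with Benjamini-Hochberg adjustment. Recovery and test were tested on simulated data. The simulated backgrounds did not reach down to the lowest of the IgG lists or up to those of some tall regions, so recovery was not simulated there. Python 3.11.15, scipy 1.17.1 and pandas 2.3.3 were used.

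All intervals are Clopper-Pearson (exact, 95%). They express counting error alone, because PCR copies are not independent molecules. The labels do not say whether replicates are from different animals, so agreement between them may be technical. The members and the 16 gene lists were chosen with earlier results of these data known. Regions and genes named were the 15 best-ranked regions, the 10 genes with most regions, every PP2A host, every host of the stem cell lists, the 4 best hosts of each other list, the 5 regions farthest from a boundary, up to 5 with each kind of small RNA or pseudogene entry, and the 3 on each side of the 1 kb limit. Of the items so chosen, 1 is not reported here. A few further members and non-hosts of the lists were named after their values were seen.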

Additional observations from a re-analysis of the deposited data

How the results depend on the processing

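No paired analysis was possible because the only test compares the 2 PPP2CA libraries with each other, and no PPP2CA library was tested against an IgG library. The number of in-gene regions was 1716 at more than 5 kb from a boundary, 1714 with a −log10 q of 5 or more, and 1124 with 20 or more fragments in both libraries. Their share of all IgG-free replicated regions was 20.2% with a reciprocal overlap of 50%, 23.6% at more than 500 bp, 18.3% at more than 2 kb, 13.8% at more than 5 kb, 23.1% with boundaries of protein-coding genes alone, 18% with the −log10 q minimum and 16.4% with the fragment minimum. Host genes numbered 1312 at more than 5 kb and 947 with the fragment minimum, which left 75 of the 141 host genes of the lists in number. The share of host genes with a region at their own boundary was 43.2% with reciprocal overlap, 52.9%, 51.1% and 54.8% at more than 500 bp, 2 kb and 5 kb, 39.9% with the −log10 q minimum and 38.5% with the fragment minimum. Median summits in PPP2CA 1 and PPP2CA 2 were 20 and 22 fragments with reciprocal overlap, 25 and 27 with the −log10 q minimum and 33 and 36 with the fragment minimum, and the PPP2CA 2 median was 18 at more than 5 kb. In alternatives added after seeing the data, the share of in-gene regions that cover a start was 18.4% for a start within 300 bp of the PPP2CA 1 summit, 32.9% with the fragment minimum and 28.6% with the −log10 q minimum. Leaving out 1 library at a time gave 2645 to 4773 in-gene regions, a share of 21.1% to 27.3%, 2067 to 3345 host genes, 48.3% to 53.3% of host genes with a marked boundary, 141 to 200 host genes of the lists, and medians of 13 to 18 in PPP2CA 1 and 14 to 20 in PPP2CA 2. The higher counts came from leaving out a PPP2CA library, since a region then needed 1 library only. Of 208 values for single lists, 179 stayed within 1.5 times the main count. Some of these could not move, so the count overstates stability. A setting that asked for regions wholly inside 1 gene changes nothing, since every in-gene region lies more than 1 kb from all boundaries. The 0 of the long neuronal genes also cannot fall. With the fragment minimum, hosts fell from 22 to 10 among stem cell transcription factors and from 14 to 6 among stem cell receptors. They fell from 15 to 6 in the MAP kinase list and from 8 to 1 in the Wnt list, and to 0 among lymphoid and stromal markers. The NF-kappaB, JAK, chromatin and myeloid counts stayed within 1.5 times. Neither alternative of the comparison between PPP2CA libraries called a region, but both use only regions called in both libraries, so this says nothing about stability. Depth limits the low regions, of which 1514 had under 20 fragments in at least 1 library.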
